A study of Mus musculus with 3 samples.

Results

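H3K36me3 peaks that lay just past the ends of protein-coding genes were examined in regulatory T cells (Treg cells) of the mouse spleen and large intestine (LI). A peak belonged to this set when it was shorter than 10 kb, when its midpoint lay outside every gene body of the GENCODE M21 annotation and more than 1 kb from any transcript start, and when it lay within 10 kb downstream, on the gene strand, of a coding gene end. The rule used position and length and no signal. It selected 4395 of the 120910 merged peaks of the table, or 3.63%, beside 115098 peaks in gene bodies, 118 that lay only upstream of a coding gene start and 326 elsewhere between genes. Treg cells were sorted as CD3+CD4+ cells with the Foxp3-YFP reporter from adult C57BL/6 mice at steady state, without treatment, all of which carried Foxp3 Cre-YFP and none of which is labelled with a Setd2 deletion. Each tissue had 1 library, for which the cells of 7 females and 7 males were combined. The input library, of splenic Treg chromatin, was not analysed here. There are therefore no replicates, every tissue difference below is between 2 libraries, and no test or p-value is given.

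H3K36me3 is the trimethylation of lysine 36 on histone H3. The methyltransferase Setd2 travels with elongating RNA polymerase II and writes the mark as a gene is transcribed, so that it accumulates over gene bodies towards their ends. The polymerase does not stop at the annotated end: it continues past the polyadenylation site, where the RNA is cut, until it is released from the template.

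Each value is the mean read coverage of a peak in RPKM (reads per kilobase, scaled to the number of mapped reads), and the LI column was multiplied by 0.969 so that the totals of both columns over all peaks were equal. From the size of the smallest steps in the values, the spleen library held about 29600000 mapped reads and the LI library about 38100000. Both depths assume that the coverage tracks had bins of 20 bp, a width that the sources used here do not give. All 8 Treg and T cell marker genes carried peaks, with a summed coverage (RPKM times kb) of 3025 in spleen and 2732 in LI. The B cell markers with a peak, 4 genes, summed to 30.8 and 28.4, the 6 myeloid markers to 21.3 and 23.0, with Lyz2, Cd14, Itgam, Adgre1 and Cebpa at 0 peaks, and the 8 epithelial markers to 11.7 and 22.6, with Krt8, Krt18, Krt20, Cdh1, Cdx2 and Lgr5 at 0 peaks. The summed level of the epithelial list was higher in LI, and its part in the tissue differences below was not tested. None of these B cell, myeloid or epithelial genes had a downstream peak.

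The central 300 bases of 4 downstream peaks are shown because the results turn on their genes. By coverage, that is, RPKM times length, they are the strongest downstream peaks of S1pr1 and Klf2, which were higher in spleen, and of Ccr4 and Tox2, which were higher in LI. The sequences are from the RefSeq assembly of GRCm38 (the build named mm10), are written on the gene strand from 5′ to 3′, and overlap 0 genes of GENCODE or RefSeq. Capitals mark CG dinucleotides. GC content moved with the tissue ratio of the peaks, but the number of CG dinucleotides was not compared with it.
S1pr1, chr3:115709061-115709360, minus strand: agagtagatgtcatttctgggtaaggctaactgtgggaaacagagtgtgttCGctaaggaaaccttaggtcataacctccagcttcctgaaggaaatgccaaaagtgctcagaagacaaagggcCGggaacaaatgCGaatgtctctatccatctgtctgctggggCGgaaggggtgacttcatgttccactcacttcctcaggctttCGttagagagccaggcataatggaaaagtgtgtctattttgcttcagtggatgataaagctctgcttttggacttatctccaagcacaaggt
Klf2, chr8:72321768-72322067, plus strand: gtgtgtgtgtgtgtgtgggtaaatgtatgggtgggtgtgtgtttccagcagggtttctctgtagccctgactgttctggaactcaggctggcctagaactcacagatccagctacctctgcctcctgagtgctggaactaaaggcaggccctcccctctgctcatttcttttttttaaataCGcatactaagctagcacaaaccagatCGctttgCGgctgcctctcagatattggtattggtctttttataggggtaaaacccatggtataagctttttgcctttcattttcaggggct
Ccr4, chr9:114488241-114488540, minus strand: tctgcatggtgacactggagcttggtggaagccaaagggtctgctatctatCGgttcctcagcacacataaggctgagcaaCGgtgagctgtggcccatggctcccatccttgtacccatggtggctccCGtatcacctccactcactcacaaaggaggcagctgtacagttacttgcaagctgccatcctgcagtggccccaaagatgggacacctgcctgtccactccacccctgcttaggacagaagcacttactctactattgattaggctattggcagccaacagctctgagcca
Tox2, chr2:163324465-163324764, plus strand: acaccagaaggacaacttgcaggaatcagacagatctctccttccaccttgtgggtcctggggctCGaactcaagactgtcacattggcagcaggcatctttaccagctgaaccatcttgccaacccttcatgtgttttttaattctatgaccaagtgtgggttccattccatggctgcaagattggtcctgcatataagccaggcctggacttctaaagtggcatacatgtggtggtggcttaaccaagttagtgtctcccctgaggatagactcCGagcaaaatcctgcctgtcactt
The S1pr1 window held 5 CG dinucleotides, the Klf2 and Ccr4 windows 3 each and the Tox2 window 2. GC content was 46.7% for S1pr1, 47.7% for Klf2, 54.7% for Ccr4 and 49% for Tox2. The main polyadenylation signal AATAAA occurred 0 times in each of the 4 windows.

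Outside genes, H3K36me3 peaks lay mostly past coding gene ends. Sequence outside gene bodies, more than 1 kb from any transcript start and not in assembly gaps amounted to 1388 Mb and held 4839 peaks, or 3.49 per Mb. The 10 kb past coding gene ends made up 8.20% of these bases and held 90.8% of the peaks, a density of 38.6 per Mb. Sequence within 10 kb of a gene end but of no gene start held 37.3 peaks per Mb, and sequence within 10 kb of a gene start but of no gene end held 1.35 per Mb, a 27.7-fold difference. The region next to a transcript start was removed by the rule but that next to an end was not. With the first kb past the end left out as well, the density was 21.4 per Mb and the difference 15.9-fold. Sequence farther than 10 kb from both held 0.275 peaks per Mb. Where sequence near both an end and a start counted on both sides, the ratio of downstream to upstream density was 3.74.

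Peaks were densest next to the gene end and thinned with distance. Of the 4395 peaks, 2245 (51.1%) had their midpoint in the first kb, 75.9% within 2 kb, 86.8% within 3 kb and 92.2% within 4 kb. The median distance was 961 bp, the quartiles were 438.5 and 1945 bp, and the range was 1 to 9999 bp. Per Mb of sequence the density fell from 147 in the first kb to 78.6 in the next, 37.6 between 2 and 3 kb and 19.9 between 3 and 4 kb, and it was 2.12 between 9 and 10 kb. Over these bins the decline was steady, and each kb held fewer peaks per Mb than the kb before it. The distance from a downstream peak to the next peak on the side of its gene had a median of 345 bp, and was under 1 kb for 79.8% of the peaks, so that most continued a series of peaks rather than standing alone.

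The peaks near the limits of the rule were as follows. The longest was the 8352 bp peak at Jmjd6, and 4 peaks of 10 kb or more, the shortest of them 11482 bp long at Tor1a, fell outside. The farthest peak, 9999 bp past Ndfip1, had 13.7 RPKM in spleen and 5.07 in LI, and the nearest one outside, 10005 bp past Itm2b, had 5.63 and 7.75. Between 10 and 20 kb there were 108 further peaks. The peak closest to a transcript start, at 1006 bp, belonged to Atg12, and 257 peaks that were otherwise eligible lay nearer to a start.

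The downstream peaks were shorter than peaks in gene bodies, and their median signal was slightly lower. Their median length was 371 bp against 459 bp, and 560 of them were at least 1 kb long. Set beside gene body peaks of like length, they were weaker in spleen in all 4 classes of length, but in LI they were stronger in the 3 classes under 1 kb. In spleen they had a median of 9.36 RPKM and in LI one of 9.99 RPKM, against 10.4 and 10.2 RPKM in gene body peaks. In peaks of 200 to 400 bp the medians, downstream and in gene bodies, were 8.17 and 8.79 RPKM in spleen and 9.05 and 8.53 RPKM in LI. In peaks of at least 1 kb they were 12.9 and 13.9 in spleen and 13.4 and 14.0 in LI. The values ranged from 0 to 39.6 RPKM in spleen and from 0.315 to 40.8 RPKM in LI, and 3 peaks were listed at 0 in spleen. The signal in spleen dropped from 10.9 RPKM in the last kb of coding bodies to 9.79 RPKM in the first kb past the end and 8.89 RPKM in the next. In LI the same positions had 11.5, 10.4 and 9.68 RPKM. Beyond that, the medians showed no further steady decline. Because peaks that did not pass peak calling are not in the table, these medians describe peaks that were called, not the coverage of all downstream sequence. The 646 peaks (14.7%) that reached into a gene body had 11.7 RPKM in spleen and 12.1 in LI, and the 3749 that lay wholly outside had 9.01 and 9.69.

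**Figure D1:**
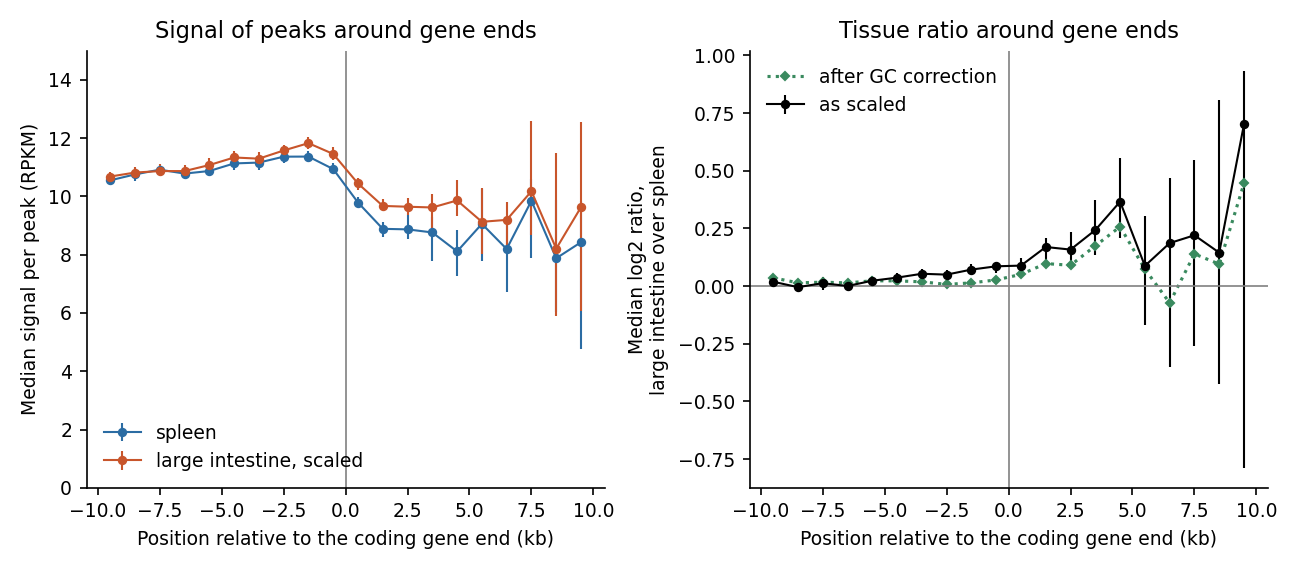
Median signal (RPKM, left) and median log2 ratio of LI over spleen (right) of peaks in 1 kb bins, from 10 kb before to 10 kb past coding gene ends, with binomial 95% intervals of the medians as bars. Signal was highest 1 to 2 kb before the end in both libraries and lower past it, while the ratio was 0.09 in the first kb past the end, 0.37 between 4 and 5 kb, and between 0.09 and 0.70 beyond, where the last 3 bins held 19 to 30 peaks.

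Past gene ends the LI signal was slightly higher than the spleen signal. Ratios are log2 of LI over spleen with 0.5 RPKM added to each, in the 4335 downstream peaks whose values summed to at least 10 RPKM; this scale understates differences of weak peaks. The median ratio was 0.13 (binomial 95% interval 0.11 to 0.16 over peaks), and 56.7% of the peaks (Wilson 95% interval 55.3 to 58.2%) were higher in LI. Over all peaks under 10 kb the median was -0.01 and 49.0% were higher in LI. Past 2-fold, 553 downstream peaks (12.8%) were higher in LI, where the share over all peaks was 8.78%, and 350 (8.07%) were higher in spleen, where it was 9.22%. These intervals describe the spread over peaks of 1 library per tissue and not over animals. A median downstream peak held about 10.1 reads in spleen and 14.3 in LI, if each read is taken to cover 200 bp, which gives a median counting error of 0.62 on the log2 scale for a peak. Of the 560 peaks of at least 1 kb, 4 were past 2-fold higher in LI and 3 in spleen. In peaks whose values summed to at least 20 RPKM the median ratio was 0.09. Peaks were called in each library and then merged, and the LI library was the deeper one. The part of this in the ratio of weak peaks was not tested.

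As scaled, the median ratio was above 0 in the last kb of coding bodies and in the first kb past the end. It was -0.005 at 8 to 9 kb before the end. In coding bodies its median was 0.02 at 9 to 10 kb before the end and 0.09 in the last kb, beside 0.09 in the first kb past it. With a correction for GC content, described with the values by GC content, the same 2 body positions had 0.04 and 0.03, so that the rise before the gene end was lost. Without the correction, the ratio past the end was 0.17 between 1 and 2 kb and 0.18 between 2 and 4 kb. Between 4 and 10 kb it was 0.23 (interval 0.13 to 0.35, 330 peaks). Within that span it was 0.37 between 4 and 5 kb (119 peaks), and each bin of 1 kb beyond 5 kb had an interval that held 0. Peaks upstream of gene starts (-0.12, interval -0.31 to 0.20) and elsewhere between genes (-0.06, interval -0.23 to 0.08) had medians whose intervals held 0. By length, downstream peaks of 200 to 400 bp had a median ratio of 0.18 against -0.05 in gene body peaks of that length, and those of at least 1 kb had 0.07 against 0.01.

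GC content moved with this ratio in downstream and in gene body peaks. The downstream peaks were divided into 4 sets of equal size by GC content. In the set with the lowest (median 42.4%) the median ratio was -0.08, and in the set with the highest (median 53.5%) it was 0.28. Gene body peaks in the same GC ranges went from -0.20 to 0.22. In each of the 4 ranges the downstream median was above that of the gene body peaks. After the median ratio of all peaks of like GC content was subtracted, the downstream median was 0.08, and it was 0.05 in the first kb, 0.10 in the next, 0.12 between 2 and 4 kb and 0.15 between 4 and 10 kb. Each bin of 1 kb beyond 5 kb again had an interval that held 0. The part of GC content in the tissue difference was not tested beyond this correction. On the X chromosome, 58 downstream peaks had a median of -0.06 and all peaks one of -0.16.

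**Figure D2:**
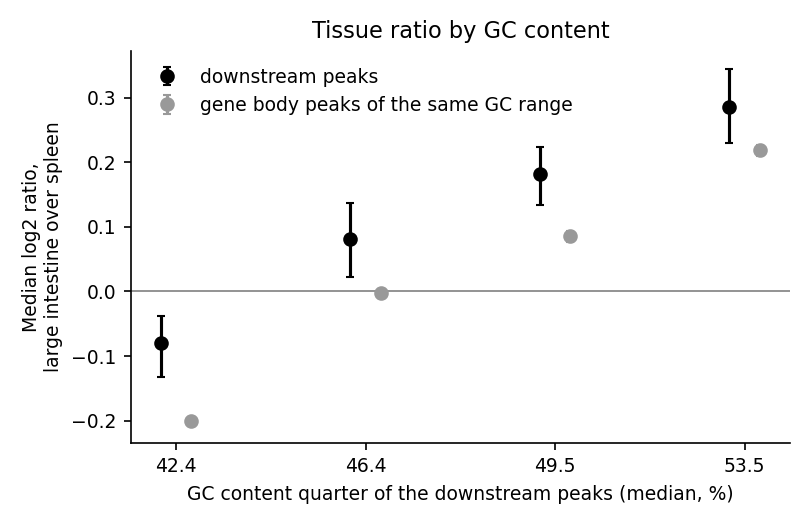
Median log2 ratio of LI over spleen for downstream peaks (black) and gene body peaks of the same GC range (grey), in 4 sets of the downstream peaks ordered by GC content, with binomial 95% intervals as bars. Both sets rose with GC content, and the downstream medians, from -0.08 to 0.28, lay above those of gene bodies, from -0.20 to 0.22.

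The downstream peaks belonged to 2696 of 21951 coding genes, each peak being given to the nearest coding gene end. Of these genes, 1676 had a single peak, 623 had 2 and 397 had 3 or more, with a maximum of 9. Among the 9032 coding genes with a peak that lay in their body and in no other gene, 2537 (28.1%) also had a downstream peak, and 159 genes had a downstream peak without such a body peak. The share with a downstream peak rose with the part of the gene that peaks covered, from 11.3% in the least covered of 4 equal sets of genes to 27.1%, 38.2% and 35.7% in the following sets. By gene length it moved little, between 26.8% and 29.3%. Thus it was more often the broadly marked genes, and not the longer ones, that had peaks past their ends.

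Within a gene, downstream peaks were weaker than body peaks in most of the 2511 genes that could be compared. In spleen the downstream signal was lower in 81.5% of genes, with medians of 9.63 and 13.4 RPKM and a median log2 difference of -0.49. In LI it was lower in 77.9% of genes, with medians of 10.4 and 13.5 RPKM and a median log2 difference of -0.39. The median ratio of LI over spleen was 0.10 for the downstream peaks and -0.02 for the body peaks of the same genes, and the median difference, downstream minus body, was 0.10 (interval 0.08 to 0.14 over genes), with the downstream ratio higher in 58.5% of genes. Across the genes, the downstream and body ratios had a Pearson correlation of 0.37 and a Spearman correlation of 0.32; the 2 measures share their libraries and genes are not independent replicates. In the 55 genes whose body was past 2-fold higher in LI, the downstream ratio was above 0 in 48 and had a median of 1.15. In the 29 genes whose body was past 2-fold higher in spleen it was below 0 in 23 and had a median of -1.16. Genes with a large tissue difference in their body therefore mostly had one of the same direction past their end. Over all downstream peaks, 56.7% were higher in LI. Peaks that reached into a gene body, 14.7% of the downstream peaks, are part of these gene values. Neither the correlations nor these counts are given without them.

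**Figure D3:**
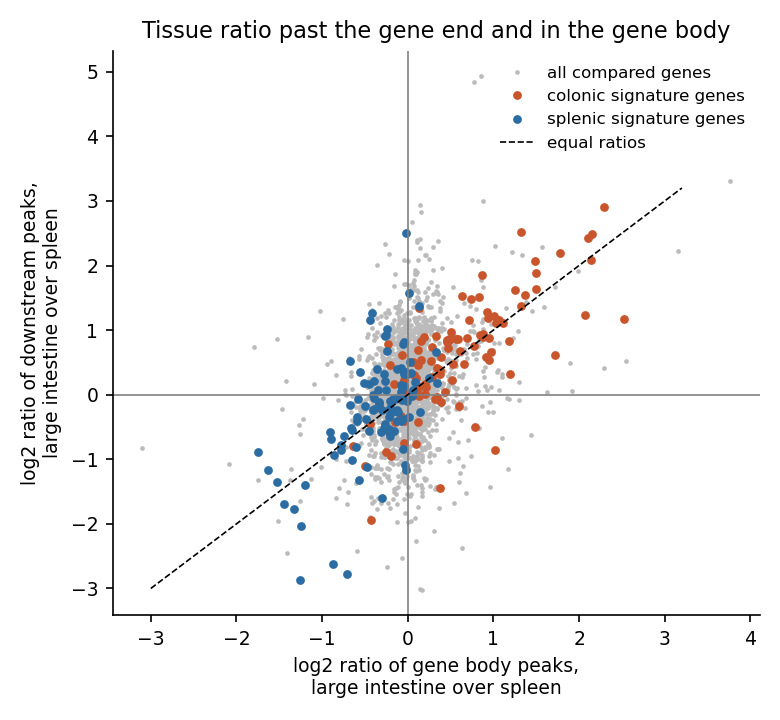
Log2 ratio of LI over spleen of the downstream peaks of each gene against that of its body peaks, for 2511 genes (grey), with colonic signature genes in orange and splenic signature genes in blue. Genes far to the right or left lie mostly near the line of equal ratios, and the genes near 0 on the horizontal axis spread widely on the vertical one, with a median counting error of 0.46.

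The study's lists of colonic and splenic Treg signature genes, chosen on expression in other samples, differed from each other in direction past gene ends. Of the colonic genes, 109 had 180 downstream peaks, and of the 174 peaks that passed the filter 139 were higher in LI, 57 of them past 2-fold (32.8%, against 8.78% of all peaks), while 8 were past 2-fold higher in spleen. Their median ratio was 0.64 (interval 0.50 to 0.80), and that of the body peaks of the list was 0.80. Of the splenic genes, 111 had 196 downstream peaks, and of the 194 that passed, 118 were higher in spleen, 31 of them past 2-fold (16.0%, against 9.22% of all peaks), while 18 were past 2-fold higher in LI. Their median was -0.27 (interval -0.40 to -0.10), and that of the body peaks of the list -0.51. In the splenic peaks whose values summed to at least 20 RPKM the median was -0.15 (interval -0.34 to 0.01), and in those of at least 1 kb it was -0.20 (interval -0.41 to 0.08), so that both intervals held 0. All downstream peaks had a median of 0.13. Peaks of 1 gene are not independent of each other, and no test was made of either list.

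Among genes higher in spleen past their ends, S1pr1 had the longest run of peaks. It encodes the sphingosine-1-phosphate receptor that lets lymphocytes leave lymphoid organs. Its 9 downstream peaks, within chr3:115703593-115709821, lay between 1222 and 6715 bp past the end, and the next gene on this side lay 184707 bp past the farthest of them. In spleen, from the nearest to the farthest peak, the values were 18.2, 9.46, 11.5, 12.3, 19.7, 9.68, 11.4, 9.68 and 6.56 RPKM, and in LI they were 8.25, 4.10, 6.63, 3.70, 6.50, 3.11, 5.48, 1.16 and 8.43 RPKM. The LI value was the lower one in 8 of the 9 peaks, and the exception was the farthest. The length-weighted means were 14.2 RPKM in spleen and 6.04 RPKM in LI, which gives a ratio of -1.17 (interval -1.51 to -0.83 from approximate counts), and the body ratio was -1.64.

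Klf2 encodes a transcription factor that keeps T cells quiescent and sustains S1pr1 expression. Its 1 downstream peak, at chr8:72319890-72323945, 4056 bp long with the midpoint 262 bp past the end, had 30.9 RPKM in spleen and 12.5 RPKM in LI, a ratio of -1.27 (interval -1.52 to -1.02). This peak also covers much of the short Klf2 gene, so that the value is not of downstream sequence alone. A peak of 751 bp inside the gene had 28.9 and 22.4 RPKM.

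Lef1, a transcription factor of resting T cells, had 4 downstream peaks that did not all go one way. The nearest, which begins inside the gene, had 19.9 RPKM in spleen and 9.11 in LI. The next 2 had 7.65 and 4.53 RPKM in spleen and 11.0 and 12.2 in LI, and the farthest, 3573 bp past the end, had 8.64 and 4.64. Over all 4 the ratio was -0.69 (interval -1.08 to -0.30), and the body ratio was -0.90. Myb, a transcription factor of progenitor and resting lymphocytes, had peaks of 10.3 and 11.8 RPKM in spleen and of 3.30 and 4.57 RPKM in LI, a ratio of -1.37 (interval -2.16 to -0.58) beside -1.20 in its body. Both of its peaks were lower in LI.

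For 2 further genes near the extreme on the spleen side, the ratio in the body had the opposite sign to that past the end. The 279 bp peak past Parp12, an interferon-induced member of the PARP family, had 16.6 RPKM in spleen and 1.61 in LI. The 275 bp peak past Hras, the GTPase, had 19.7 and 4.17 RPKM. The body ratios were 0.17 for Parp12 and 0.30 for Hras. Each value rests on few reads, about 13.8 and 1.77 for Parp12 and 16.0 and 4.5 for Hras.

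Tox2, a high-mobility-group transcription factor of T cells, was among the genes higher in LI. Its 2 downstream peaks, at chr2:163324028-163325201 and chr2:163325978-163326400, 445 and 2019 bp past the end, had 3.02 and 3.60 RPKM in spleen and 13.7 and 18.1 RPKM in LI, a ratio of 2.07 (interval 1.28 to 2.85) beside 1.49 in its body. Metrnl, which encodes a secreted protein, had peaks at 1587 and 3573 bp with 2.17 and 3.60 RPKM in spleen and 18.0 and 11.3 in LI, a ratio of 2.48 (interval 1.30 to 3.66) beside 2.15. Ern1, the IRE1 sensor of unfolded proteins in the endoplasmic reticulum, had 1.65 and 1.70 RPKM in spleen and 12.1 and 11.9 in LI, a ratio of 2.53 (interval 1.02 to 4.03) beside 1.32. Like Cables1, Pvrig, S1pr1, Klf2, Myb, Parp12 and Hras, these 3 genes met the rule for the most extreme ratio bounds past gene ends. The downstream direction of all these genes follows from that choice and is no separate result. Each downstream peak of Tox2, Metrnl and Ern1 passed the filter by its LI value alone. The bodies of these 3 genes, which the choice did not use, were also higher in LI.

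Cables1, which encodes a protein that binds cyclin-dependent kinases, had 1 downstream peak with 1.75 RPKM in spleen and 16.4 RPKM in LI, a ratio of 2.91 (interval 1.52 to 4.30) beside 2.29 in its body. Pvrig, an inhibitory receptor of lymphocytes, had 7 downstream peaks between 143 and 8756 bp. They had between 0.219 and 4.11 RPKM in spleen and between 9.44 and 14.6 RPKM in LI, without overlap. The Pvrig peak with 0.219 RPKM in spleen and 9.44 in LI did not pass the filter. Its other peaks, like that of Cables1, passed by their LI value alone. The ratio over the 7 peaks was 1.71 (interval 1.12 to 2.29). All 7 lay inside gene models of RefSeq, 5 of them in its longer Pvrig model and 3 in Pvrig-ps, so that for this gene GENCODE and RefSeq differ on whether the sequence is downstream at all.

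**Figure D4:**
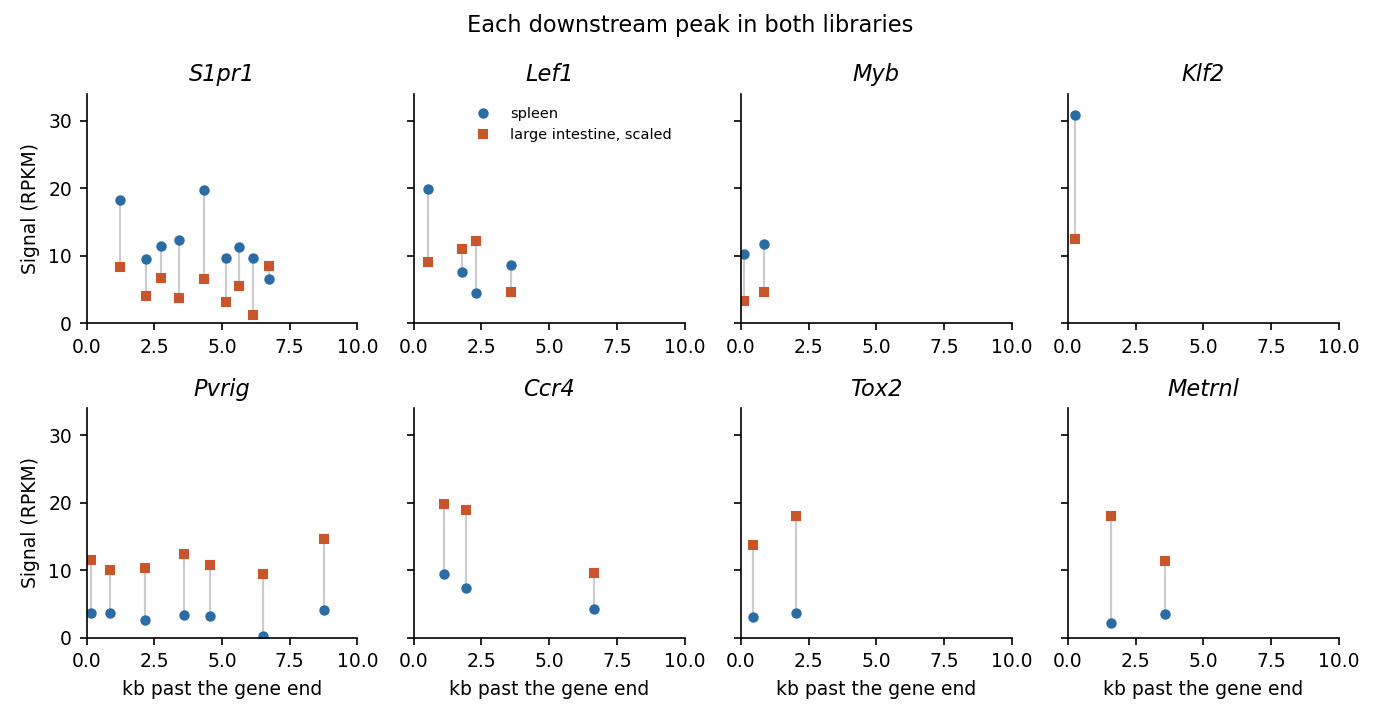
Signal (RPKM) of every downstream peak of 8 genes in spleen (blue circles) and LI (orange squares, scaled) against distance past the gene end in kb. All 9 peaks of S1pr1 but the farthest were higher in spleen, the peaks of Lef1 were mixed, and all peaks of Pvrig, Ccr4, Tox2 and Metrnl were higher in LI.

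From a list of 123 genes of Treg and T cell biology, 44 had 82 downstream peaks. Of the 80 that passed the filter, 49 were higher in LI and 31 in spleen, 23 and 11 of them past 2-fold (28.7% and 13.7%, against 8.78% and 9.22% of all peaks), and the median ratio was 0.37 (interval -0.04 to 0.68), against 0.13 over all downstream peaks. Peaks of 1 gene are not independent of each other. Taken by gene, the median ratio was 0.15 over 42 genes, against 0.10 over the 2511 genes compared with their bodies. Ccr4, a chemokine receptor of skin and effector Treg cells, had peaks at 1105, 1925 and 6651 bp with 9.49, 7.40 and 4.27 RPKM in spleen and 19.9, 19.0 and 9.54 RPKM in LI. All 3 were more than 2-fold higher in LI, and the ratio was 1.16 (interval 0.59 to 1.73) beside 0.71 in the body.

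Batf, an AP-1 family factor of effector and tissue Treg cells, had a higher ratio in its downstream peaks than in its body peaks. Its 2557 bp peak, at chr12:85708275-85710831, had 19.5 RPKM in spleen and 26.2 in LI, and its 223 bp peak, 1961 bp past the end, had 5.65 and 21.4. The ratio was 0.48 (interval 0.20 to 0.77) beside 0.05 in the body. Gata3, a lineage factor that tissue Treg cells use, went the other way. Its peaks, at chr2:9856187-9857361 and chr2:9855297-9855644, 304 and 1607 bp past the end, had 16.7 and 10.6 RPKM in spleen and 12.6 and 2.97 RPKM in LI, a ratio of -0.53 (interval -1.02 to -0.04) beside 0.17 in the body. After GC correction the interval of Gata3 (-0.98 to 0.00) held 0. The longer Batf peak and the nearer Gata3 peak reach into their genes, so these ratios are not of downstream sequence alone. The shorter peaks, of 223 and 348 bp, had counting errors of 0.82 and 0.84 on the log2 scale.

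Ets1, a transcription factor of lymphocytes, had a ratio of 0.44 (interval -0.00 to 0.87) and Zap70, the kinase of the T cell receptor, one of 0.53 (interval 0.05 to 1.00). After GC correction the ratio of Zap70 was 0.35 (interval -0.13 to 0.83), which held 0, and that of Ets1 was 0.52 (interval 0.09 to 0.96), which did not. Both peaks of Zap70 lay over 2 kb past its end, with 7.03 and 11.6 RPKM in spleen and 13.4 and 12.8 in LI. The inhibitory receptor gene Ctla4 (0.01, interval -0.47 to 0.50) and the costimulatory receptor gene Tnfrsf4 (0.02, interval -0.37 to 0.40) had about equal signal in both libraries past their ends. Of the other genes of the list whose interval did not hold 0, 3 are named here after their values were seen, and all 3 were higher in LI. That shared direction follows from the choice and is no result about the list, and any others are not counted here. Over the list, 26 of the 42 genes compared were higher in LI past their ends. Il10, the suppressive cytokine, had 2.36 RPKM in spleen and 11.7 in LI at 114 bp, and reached the filter by its LI value alone. Maf, a factor that supports Il10 expression, had means of 3.73 and 9.78 RPKM over 3 peaks. Itgae, the integrin subunit CD103, had 2.22 and 8.79 RPKM. Their body ratios were 2.13, 0.93 and 0.86.

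The 8 genes with the most summed signal past their ends had long peaks near the gene end, and in each of them the ratio of the downstream peaks was between 0.04 and 0.20, although a correction for GC content took those of Ppan (-0.19), Mamdc4 (-0.19), Atf4 (-0.14), Abr (-0.01) and Pink1 (-0.00) below 0. Ppan, which encodes a factor of ribosome assembly, had 1 peak of 7653 bp, at chr9:20889306-20896958, with 39.6 RPKM in spleen and 40.8 in LI. This peak spans the end of Ppan and that of Eif3g, a gene on the opposite strand whose end lies 1217 bp past the midpoint. Pink1, a kinase that marks damaged mitochondria, had a 6241 bp peak with 27.4 and 31.2 RPKM, and faced Ddost. Mamdc4 had a 5960 bp peak with 26.6 and 27.5 RPKM, and faced Edf1. For such facing genes, signal of one gene and of the other cannot be told apart.

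Itm2b, which encodes a membrane protein, had no gene within 20 kb past its 4 peaks. The nearest had 22.7 RPKM in spleen and 25.9 in LI, and the other 3, between 5239 and 6836 bp, had from 6.09 to 10.3 RPKM in spleen and from 9.08 to 11.9 in LI. Its ratio was 0.20 (interval 0.05 to 0.35). Jmjd6, an oxygenase that acts on nuclear proteins, had 23.6 and 26.7 RPKM. Abr, a regulator of small GTPases, had 18.7 and 19.7 RPKM, Hcls1, an adaptor of the actin skeleton in blood cells, 19.9 and 21.4, and Atf4, the stress response factor, 26.3 and 27.1. Abr faced Timm22 and Hcls1 faced Fbxo40, so here too the signal of facing genes cannot be told apart. The Atf4 peak also covers most of the short Atf4 gene. In all 8 genes the largest of these peaks reached into a gene body.

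S1pr1, Wnt4 and Atxn10 had the most downstream peaks, 9 each. The peaks of Wnt4, which encodes a secreted signalling protein, lay between 1135 and 8346 bp past its end. They had between 5.61 and 11.1 RPKM in spleen and between 5.89 and 18.1 RPKM in LI, and 8 of 9 were higher in LI, with a ratio of 0.42 (interval 0.11 to 0.72), which was 0.17 (interval -0.13 to 0.48) after GC correction. The Wnt4 body held 1 peak of 253 bp, with 2.07 RPKM in spleen and 12.0 in LI. The end of Cdc42, a coding gene that faces Wnt4, lay 11624 bp past the farthest of these peaks. Atxn10, which encodes ataxin 10, had peaks from 209 to 5716 bp with 1.20 to 11.9 RPKM in spleen and 4.01 to 11.5 in LI. Its ratio was 0.08 (interval -0.30 to 0.46), and its 20414 bp of body peaks had a ratio of -0.01. Wnt4 thus had most of its peaks past its end, and Atxn10 had most of its marked sequence in its body.

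Genes of 3′ end processing and termination were looked at as a list because their products act at gene ends. Of 61 names, 58 were in the annotation and 13 had 23 downstream peaks, of which 11 were higher in LI and 12 in spleen, 2 and 1 of them past 2-fold (8.70% and 4.35%, against 8.78% and 9.22% of all peaks), with a median ratio of -0.02 (interval -0.24 to 0.37). Papolg and Papola encode poly(A) polymerases and had 4 downstream peaks each. The ratios were 0.22 (interval -0.06 to 0.49) for Papolg and 0.22 (interval -0.25 to 0.70) for Papola. Ints4 and Ints9, subunits of the Integrator complex, which ends short transcripts, had ratios of 0.00 (interval -0.45 to 0.45) and -0.23 (interval -0.79 to 0.32), and Rbbp6, a factor of the cleavage machinery, one of -0.35 (interval -0.81 to 0.12). In each of these 5 genes the counting interval held 0, except that after GC correction that of Papolg (0.14 to 0.69) did not.

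Of 34 genes on a list of immediate early genes, a class of short genes switched on within minutes of stimulation, 11 had 21 downstream peaks. Of the 20 that passed the filter, 15 were higher in LI and 5 in spleen, 3 and 2 of them past 2-fold (15% and 10%, against 8.78% and 9.22% of all peaks), and the median ratio was 0.46 (interval 0.21 to 0.71). Klf2, the strongest of them, went against this median. It is on the list although, as described above, it keeps T cells quiescent. Btg1, an antiproliferative gene named here after its values were seen, had 7 downstream peaks, with means of 12.1 RPKM in spleen and 17.5 RPKM in LI and a ratio of 0.51 (interval 0.27 to 0.76) beside -0.04 in its body. Peaks of 1 gene are not independent of each other, and Btg1 alone held 7 of the 21 peaks of the list. Taken by gene, 7 of the 10 genes compared were higher in LI, with a median ratio of 0.39.

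The median signal of the peaks differed only slightly with the orientation of the next gene. The next gene within 20 kb faced the gene end (convergent) for 1870 peaks, ran in the same direction (tandem) for 1411, and was missing for 1114. Median signals were 9.47 RPKM in spleen and 10.3 in LI for convergent, 9.25 and 9.72 for tandem and 9.32 and 9.87 where no gene followed. The median ratios were 0.13, 0.12 and 0.14. In LI the intervals of the convergent (10.04 to 10.47) and tandem (9.57 to 10.02) median signals did not overlap. Among peaks of 1 kb or more the spleen median was highest for tandem, at 13.6 RPKM, against 12.2 RPKM where no gene followed. For 1237 peaks (28.1%) the ends of 2 coding genes lay within 10 kb, so that the choice of gene rests on which end was nearer, and for 48 peaks another gene lay wholly between the gene end and the peak.

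The annotation and the sequence of the peaks were also compared. In RefSeq, 527 of the peaks (12.0%) lay inside a gene, 278 of them inside a longer model of their own gene. The 3868 peaks outside RefSeq genes had a median ratio of 0.13, and the 278 inside their own gene one of 0.08 (interval -0.07 to 0.19). The motif AATAAA was searched in the central 300 bases of each peak. It occurred on the gene strand in 12.2% of downstream peaks and on the opposite strand in 12.3%, and on either strand in 22.8%, against 25.5% of all peaks. In the first kb past the end the gene strand share was 14.5% and that of the opposite strand 13.8%. GC content had a median of 47.9% in the downstream peaks, against 46.4% in gene bodies, and repeats made up 21% of a peak on average.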

How the data were processed

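Treg cells were sorted from spleen and large intestine (LI) and profiled by H3K36me3 ChIP-seq, with 1 library per tissue. The authors aligned single-end reads to mm10, called peaks with MACS2 against the input, merged the peaks of both tissues with bedtools, made coverage tracks in RPKM and averaged them over each merged peak. FastQC and Bowtie2 also appear in the submitters' processing notes. The deposited table is named as raw counts, but its values are mean RPKM coverage: multiplied by peak length, they came out as whole multiples (within 0.1) of 1 step for 99.97% of spleen and 99.99% of LI peaks. The number of reads per peak was not recovered exactly, since how far reads were extended is not given in the sources used here, so counting intervals are approximate and cover counting error only. 0 of 21 chromosomes had a peak past its end in GRCm38.

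The peaks were placed with GENCODE M21. Each column was scaled to its total over all peaks, 0.5 RPKM was added, and peaks whose values summed to at least 10 RPKM were compared. The design had been written for a table of counts or normalized values, and its RPKM settings were used. Gene values are means weighted by peak length; body peaks lay in 1 gene body only. A body overlapped by another gene can therefore lack them. Named genes were the 8 with the most summed downstream signal, the 5 in each direction with the most extreme interval bound nearer to 0, up to 10 of the Treg and T cell list and up to 5 of the 3′ end list by summed signal, and the 3 with the most peaks. The members, lists and rules were chosen with earlier results of these data known. 1 marker gene is not reported here. The script was tested on simulated data. Python 3.11.15, numpy 2.4.6, pandas 2.3.3, scipy 1.17.1 and matplotlib 3.10.9 were used. Alternatives were other windows, lengths, scalings, filters and pseudocounts, a GC correction, and autosomes only.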

Additional observations from a re-analysis of the deposited data

How the results depend on the processing

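With 1 library per tissue no comparison has a replicate check, the cells were pooled from mice of both sexes, and the input was not analysed here, so local background and mappability past gene ends were not measured. Peaks were called before deposit, and sequence without a peak has no value. At about 10.1 spleen reads per median peak, a difference of 2-fold in a single short peak is near its counting error. No paired analysis was possible because each tissue has 1 library and no result comes from a test. Of the results that answer a comparison, 38 values moved under an alternative and 0 reversed.

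With the whole peak outside every gene body, the median levels were 9.01 RPKM in spleen and 9.69 RPKM in LI (convergent 9.05 and 9.89, tandem 8.99 in spleen, no next gene 8.97 and 9.60), and the log2 differences from the same gene body were -0.57 in spleen and -0.46 in LI. In peaks of 1 kb or more, the levels were 12.9 and 13.4 RPKM (convergent 12.8 and 13.5, tandem 13.6 and 13.9, no next gene 12.2 and 12.9), the differences from the body -0.34 and -0.23, the median ratio 0.070, the colonic median 0.26, and 4 and 3 peaks were past 2-fold. With a pseudocount of 5 RPKM, the median ratio was 0.093, the difference from the body ratio 0.067, the colonic median 0.42, and 144 peaks were past 2-fold higher in LI and 71 in spleen. With a sum of at least 20 RPKM, the median ratio was 0.089, the colonic median 0.32, and 81 and 51 peaks were past 2-fold. With the GC correction, the median ratio was 0.076 and the difference from the body ratio 0.075. The ratio of downstream to upstream density was 5.97 with a 5 kb window and 2.49 with 20 kb; on sequence of one side only, which like leaving out RefSeq genes was added once the data were known, it was 27.7, and 15.9 at 1 to 10 kb. For the named genes, the GC correction turned the sign of Pink1 (-0.0020), Abr (-0.0086), Mamdc4 (-0.19), Ppan (-0.19) and Atf4 (-0.14), all but Pink1 with an uncorrected interval that held 0, the corrected intervals of Mamdc4 and Ppan lying below 0. Those of Pink1, Jmjd6 (0.06), Wnt4 (0.17), Zap70 (0.35) and Gata3 (-0.49) held 0 only once corrected. Lef1 (-1.09) and Wnt4 (0.73) moved by their strongest peak alone.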
